A study of Mus musculus with 12 samples.

Results

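The genes described here are 6 genes known from the mesothelium, Msln, Upk3b, Upk1b, Wt1, Nkain4 and Lrrn4, and 4 genes that move with them on these arrays, Cdh2, Calcb, Rarres1 and Aqp3. They are 10 of the 17097 genes with a probe set on the array, each followed by its probe set of highest mean signal. They were chosen by their measured signals, for the difference between the 2 bright PNX arrays, so that difference is given as a description with no test. The 4 genes were taken for moving with the other 6, and over which arrays is not recorded, so their differences are given with no test throughout.

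The cells were interstitial fibroblasts that carry GFP as a reporter of the PDGF receptor alpha gene (Pdgfra), sorted from dispase-digested mouse lungs 5 days after surgery into a GFP bright and a GFP dim gate. The groups were bright and dim cells of animals with a partial pneumonectomy and a dominant-negative form of FGF receptor 2 (PNX-dnFGFR), of animals with a partial pneumonectomy alone (PNX), and of animals with a sham operation (SHAM). All carry the Pdgfra-GFP reporter, and the promoter that drives the dominant-negative receptor, its strain and the ages of the animals are not stated in the labels. There were 2 arrays in each of the 6 groups, biological replicates per their labels, made from RNA of 2000 cells amplified over 25 cycles. The labels do not say if a replicate is 1 animal or a pool, so p-values measure only the spread between these samples. The 2 gates may have been sorted from the same animals, and they were treated as independent.

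Mesothelial cells form a single flat layer over the lung, the pleura, and over the other organs and walls of the body cavities. They join epithelial traits, such as keratins and cell junctions, with mesenchymal ones, and the Wt1 gene marks them from the embryo on. They are not the target of a sort for fibroblasts, but the pleural layer is part of a digested lung. In RNA from sorted pools of cells, fewer cells of a type and less RNA per cell cannot be told apart.

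The promoters of 4 of the genes are shown, all of them high on replicate 1 and low on replicate 2 of bright PNX. They run from 250 bases before to 50 after a transcript start (RefSeq, GRCm38.p6), which for Lrrn4 lies inside the span RefSeq gives the gene, chr2:132866686-132894010. Capitals mark matches, on either strand, to the 4 motifs searched. These were GGAATG, the core bound by TEAD factors, AGGTCA, a nuclear receptor half-site, GCGNGGGNG, a site of the EGR and WT1 type, and TATAAA, the TATA box.
Upk3b, chr5:136038246-136038545, + strand: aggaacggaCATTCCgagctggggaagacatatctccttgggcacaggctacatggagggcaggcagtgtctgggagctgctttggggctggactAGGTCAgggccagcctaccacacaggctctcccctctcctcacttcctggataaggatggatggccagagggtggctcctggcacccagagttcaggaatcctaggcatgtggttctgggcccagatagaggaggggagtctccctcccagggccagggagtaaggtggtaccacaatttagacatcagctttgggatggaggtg
Lrrn4, chr2:132880813-132881112, - strand: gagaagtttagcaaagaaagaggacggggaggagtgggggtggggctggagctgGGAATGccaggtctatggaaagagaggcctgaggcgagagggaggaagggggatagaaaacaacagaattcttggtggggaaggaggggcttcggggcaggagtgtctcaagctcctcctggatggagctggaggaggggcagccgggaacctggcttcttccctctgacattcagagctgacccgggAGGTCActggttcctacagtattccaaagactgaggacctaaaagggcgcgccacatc
Rarres1, chr3:67515474-67515773, - strand: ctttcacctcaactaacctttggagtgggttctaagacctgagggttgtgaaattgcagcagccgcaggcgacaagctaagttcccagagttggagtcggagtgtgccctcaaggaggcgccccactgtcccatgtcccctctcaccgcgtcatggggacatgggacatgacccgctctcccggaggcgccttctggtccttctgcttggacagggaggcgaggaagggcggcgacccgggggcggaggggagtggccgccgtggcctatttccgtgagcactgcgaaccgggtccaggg
Aqp3, chr4:41098134-41098433, - strand: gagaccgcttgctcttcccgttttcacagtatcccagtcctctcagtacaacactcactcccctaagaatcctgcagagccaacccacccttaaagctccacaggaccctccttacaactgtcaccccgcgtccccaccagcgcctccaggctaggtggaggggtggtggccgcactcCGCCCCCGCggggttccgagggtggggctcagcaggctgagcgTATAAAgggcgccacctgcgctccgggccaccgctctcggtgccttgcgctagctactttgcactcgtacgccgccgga
Upk3b and Lrrn4 each held 1 match to GGAATG (in Upk3b on the opposite strand) and 1 to AGGTCA. Aqp3 held 1 match to GCGNGGGNG on the opposite strand and 1 TATA box, which ends shortly before the start. Rarres1 held no match to the 4 motifs in this window. No matches overlapped. Of 32851 mouse promoters of the same length, 14.7% held GGAATG, 16.3% AGGTCA, 12.3% GCGNGGGNG and 13.6% TATAAA, so each match is a common one. The promoters of Msln, Upk1b, Wt1, Nkain4, Cdh2 and Calcb are not shown.

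Signals are log2 values, so a difference of 1 is a 2-fold difference. A gene was tested if its signal exceeded 5.101 (the median over all arrays) on 2 arrays or more, which held for 11073 genes. Lower signals are not shown to lie above background. Array medians lay between 5.06 and 5.13. Pdgfra itself, the gene of the reporter, read 4.84 to 5.54 on bright arrays against 6.66 to 7.13 on dim arrays, lower in the gate labelled bright. The markers of adventitial fibroblasts, a summed linear signal of 16146 to 25414 on bright arrays against 11210 to 11786 on dim arrays, went the other way. Those of alveolar fibroblasts, with 5820 to 11099 on bright and 24851 to 26625 on dim arrays, went the way of Pdgfra.

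Msln encodes mesothelin, a surface glycoprotein that gives the cell type its best known marker. Msln read 4.13 and 3.73 on bright PNX-dnFGFR arrays, 4.85 and 3.63 on bright PNX arrays, and 3.78 and 3.39 on bright SHAM arrays. On dim arrays Msln lay between 3.0 and 3.85. All 12 values were below the filter, so Msln was not tested, and the most used marker of the mesothelium was not shown to be present.

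Upk3b encodes an uroplakin, a membrane protein named for the plaques of the bladder lining and also made by mesothelium. Upk3b read 7.42 and 7.88 on bright PNX-dnFGFR arrays, 8.83 and 5.10 on bright PNX arrays and 7.39 and 4.46 on bright SHAM arrays. Among dim arrays it read 4.69 and 4.52 in PNX-dnFGFR, 7.35 and 3.99 in PNX and 4.49 and 4.51 in SHAM. It was high on both bright PNX-dnFGFR arrays and on replicate 1, but not replicate 2, of bright PNX, bright SHAM and dim PNX.

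Upk1b encodes the tetraspanin-type uroplakin. Upk1b read 6.72 and 6.48 on bright PNX-dnFGFR arrays, 8.49 and 3.99 on bright PNX arrays and 7.66 and 7.56 on bright SHAM arrays. On dim arrays it read 3.77 and 5.05 in PNX-dnFGFR, 10.22 and 4.52 in PNX and 10.66 and 10.67 in SHAM. Its highest values were thus on dim arrays, both of SHAM and replicate 1 of PNX, which goes against a name of bright-gate gene. All 3 probe sets of Upk1b had this order.

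Wt1 encodes the zinc finger transcription factor WT1, required for mesothelium and its derivatives in mouse development. Wt1 read 4.64 and 6.13 on bright PNX-dnFGFR arrays, 5.55 and 2.72 on bright PNX arrays and 3.29 and 2.72 on bright SHAM arrays. The dim arrays lay between 2.26 and 2.86. Only bright PNX-dnFGFR replicate 2 and bright PNX replicate 1 exceeded the filter, so Wt1 entered the fit only through arrays where it is high, one of which chose the genes. Its differences are therefore given with no test.

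Nkain4 encodes a membrane protein that binds a subunit of the sodium-potassium pump. Nkain4 read 10.61 and 11.13 on bright PNX-dnFGFR arrays, 11.00 and 10.30 on bright PNX arrays and 10.49 and 10.02 on bright SHAM arrays. It read 7.13 to 8.65 on dim arrays. No other of the 10 genes exceeded the filter on all 12 arrays, and here the bright and dim arrays did not overlap.

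Lrrn4 encodes a membrane protein of the neuronal leucine-rich repeat family. Lrrn4 read 5.84 and 6.52 on bright PNX-dnFGFR arrays, 7.73 and 3.79 on bright PNX arrays and 5.80 and 4.71 on bright SHAM arrays. The dim arrays, at 3.51 to 4.64, were all below the filter, so Lrrn4 too entered the fit only through bright arrays. The one bright array inside the dim range was replicate 2 of PNX.

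Cdh2 encodes N-cadherin, the adhesion protein of mesenchymal cells that mesothelium also uses. Cdh2 read 8.51 and 8.75 on bright PNX-dnFGFR arrays, 7.63 and 3.80 on bright PNX arrays and 4.74 and 3.96 on bright SHAM arrays, with 3.09 to 3.47 on dim arrays. Only both PNX-dnFGFR arrays and PNX replicate 1 exceeded the filter.

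Calcb encodes the beta form of calcitonin gene-related peptide, a vasodilator peptide best known from sensory nerves. Calcb read 8.36 and 7.49 on bright PNX-dnFGFR arrays, 7.57 and 3.21 on bright PNX arrays and 3.33 and 3.21 on bright SHAM arrays, with 3.0 to 4.23 on dim arrays. Bright PNX replicate 1 lay between the 2 PNX-dnFGFR arrays, and bright PNX replicate 2 at the level of SHAM.

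Rarres1 encodes a membrane protein named for its induction by retinoids in human cells. Rarres1 read 8.0 and 8.17 on bright PNX-dnFGFR arrays, 6.90 and 3.69 on bright PNX arrays and 4.72 and 4.29 on bright SHAM arrays, with 2.87 to 3.40 on dim arrays. Aqp3 encodes a channel for water and glycerol. Aqp3 read 9.37 and 8.16 on bright PNX-dnFGFR arrays, 6.67 and 4.35 on bright PNX arrays and 3.45 and 5.73 on bright SHAM arrays, with 3.88 to 4.48 on dim arrays. It is the only one of the 4 with a SHAM array above the filter. Of its other 2 probe sets, one read 4.75 to 5.37 and the other 2.59 to 3.88 over the bright arrays, so the values of Aqp3 rest on 1 of 3 probe sets.

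**Figure D1:**
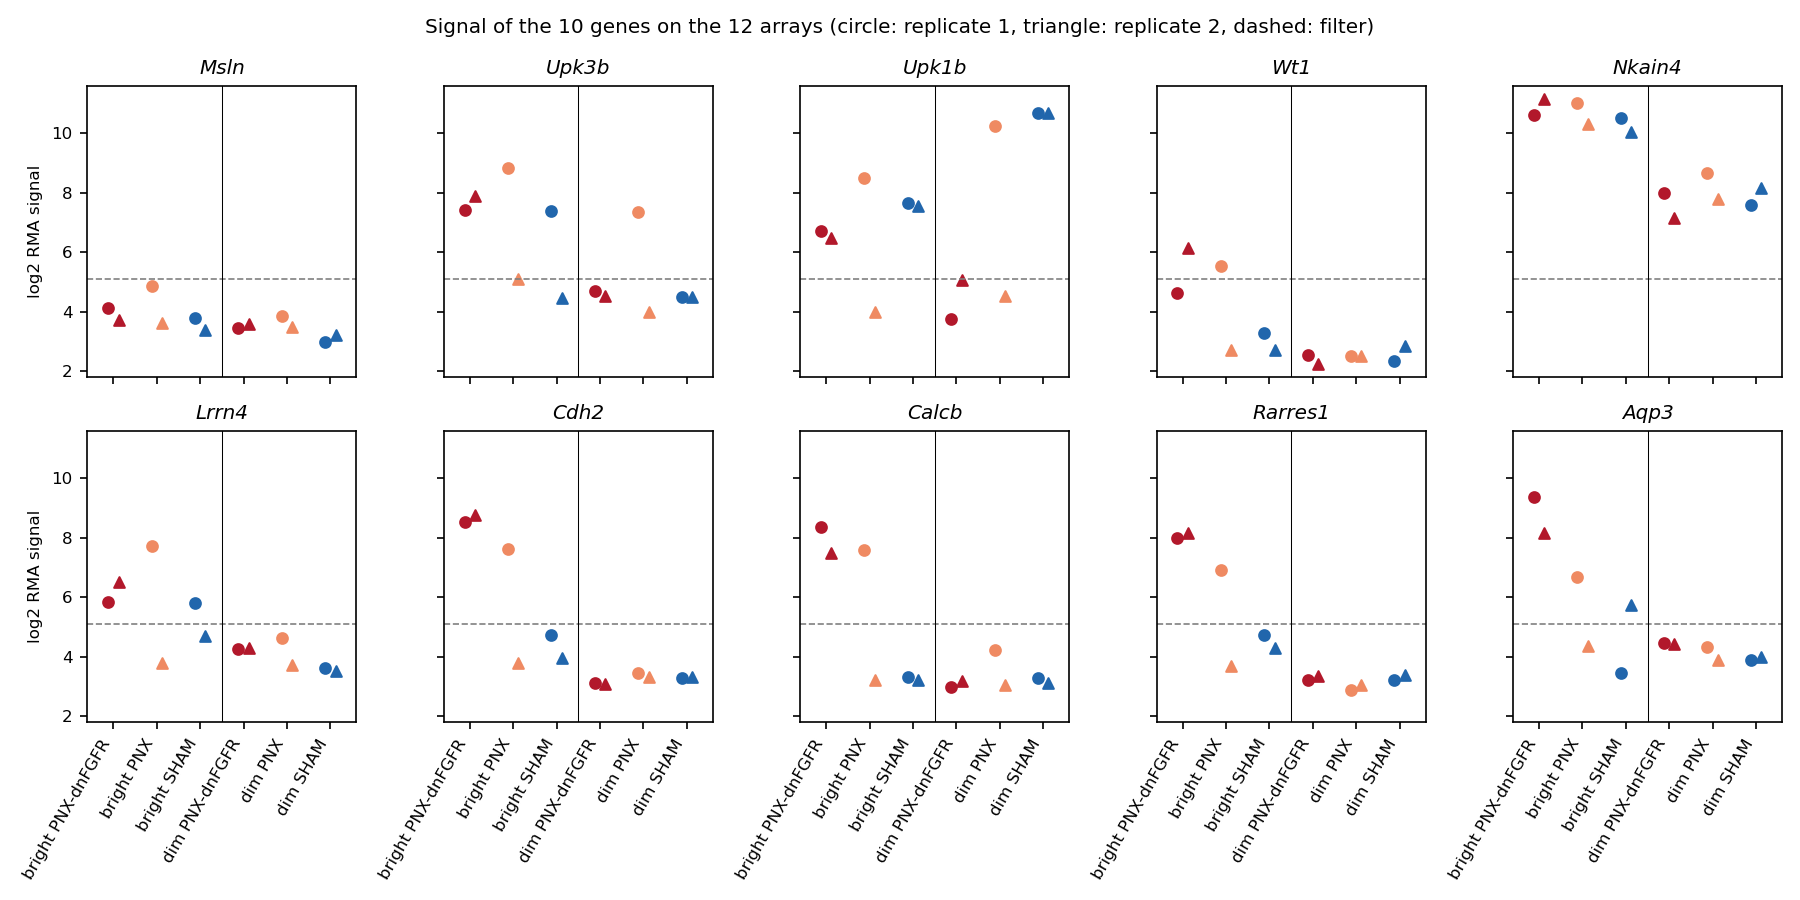
Log2 signal of each of the 10 genes (y axis) on the 12 arrays by group (x axis), with circles for replicate 1, triangles for replicate 2 and the dashed line at the filter of 5.101. Replicate 1 of bright PNX lies above this line and replicate 2 at or below it in all genes but Nkain4, which stays above it on every array, and Msln, which stays below it.

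Between the 2 bright PNX arrays 9 of the 10 genes were higher in replicate 1 than in replicate 2 by more than 1 log2, the difference that chose them. Over all genes tested 2.72% were higher by as much, which is printed for scale and supports nothing here. The differences were 4.5 in Upk1b, 4.37 in Calcb, 3.94 in Lrrn4, 3.83 in Cdh2, 3.73 in Upk3b, 3.21 in Rarres1, 2.82 in Wt1, 2.33 in Aqp3, 1.23 in Msln and 0.70 in Nkain4. Nkain4, the gene just outside 1 log2, ranked 653 of 11073 in this difference, and Msln just inside it was below the filter on both arrays. The median over the 10 genes was 3.47, against -0.015 over all genes tested. Because replicate 2 was below the filter for most of them, the sizes are uncertain: with values below the filter set to it, Upk1b differed by 3.39, Lrrn4 by 2.63, Calcb by 2.47, Cdh2 by 2.53, Wt1 by 0.45 and Msln by 0.00, and the median was 2.14. Of the 25 genes with the largest difference 7 were among the 10, and of the first 100, 8 were.

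The median difference was smaller in the other 5 pairs of replicates. The genes were chosen on the bright PNX pair, so this order of the pairs follows from the rule and nothing is read from it. For the 10 genes, replicate 1 minus replicate 2, it was -0.21 in bright PNX-dnFGFR and 0.44 in bright SHAM. On dim arrays it was 0.00 in PNX-dnFGFR, 0.65 in PNX and -0.08 in SHAM. Only Upk1b was lower by more than 1 log2 in dim PNX-dnFGFR replicate 1, with -1.28 (1.53% of all genes). In dim PNX 3 of the 10 were higher in replicate 1 by more than 1 log2, against 2.02% of all genes: Upk1b by 5.70, Upk3b by 3.36 and Calcb, below the filter on both arrays, by 1.17. In bright SHAM Upk3b was higher in replicate 1 by 2.93 and Lrrn4 by 1.09 (0.939% of all genes by more than 1), while Aqp3 had a difference of -2.28 (1.79% lower by more than 1). In bright PNX-dnFGFR Aqp3 differed by 1.20 (0.722% higher) and Wt1 by -1.49 (0.984% lower).

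**Figure D2:**
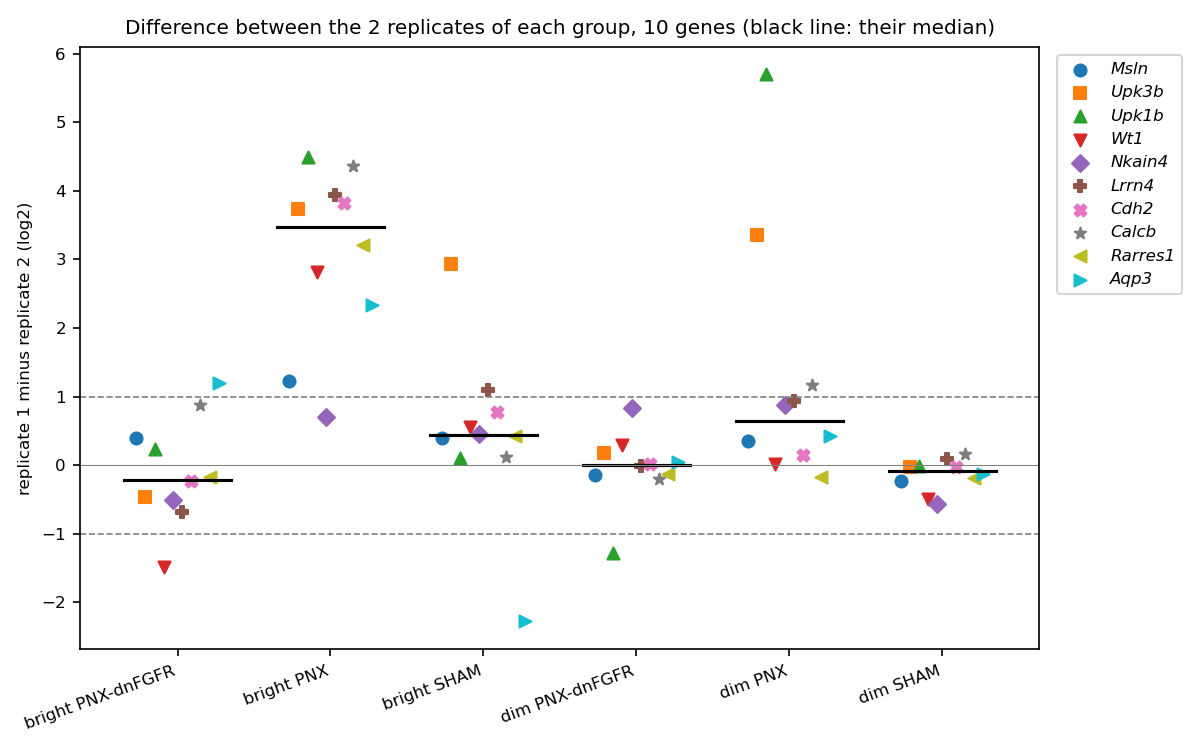
Difference between replicate 1 and replicate 2 in log2 signal (y axis) for the 10 genes (symbols) in each of the 6 groups (x axis), with the black line at their median and dashed lines at 1 and -1. The median is 3.47 in bright PNX, the pair that chose the genes, and between -0.21 and 0.65 in the other groups, where Upk1b and Upk3b in dim PNX reach 5.70 and 3.36.

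Other transcripts separated the same 2 bright PNX arrays. Those highest in replicate 1 over replicate 2 were the haemoglobin genes Hbb-b2, which differed by 6.75 with 3.25 in replicate 2, and Hba-a1, at 11.35 against 5.80, followed by Sfrp2, a secreted Wnt modulator, at 10.24 against 5.71. Lowest in replicate 1 were the club cell genes Scgb3a2, at 3.94 against 7.95, Scgb1a1, at 6.85 against 10.58, and Cyp2f2, at 5.20 against 8.79, then Chil4 with a difference of -2.69 and the ciliated cell gene Ccdc153 with -2.50. Scgb1a1 stood apart in the same direction in the other bright pairs, at 6.19 in replicate 1 and 11.19 in replicate 2 of PNX-dnFGFR and at 5.73 and 11.58 in SHAM. In the bright PNX-dnFGFR pair the 10 genes had no such gap, with a median of -0.21. Hbb-b2 read 8.81 and 8.33 on bright PNX-dnFGFR arrays and 9.62 and 10.70 on bright SHAM arrays, so bright PNX replicate 2 was the only bright array with a low haemoglobin signal. In dim PNX, haemoglobin ran against Upk1b and Upk3b: Hbb-b2 read 3.88 in replicate 1 and 10.64 in replicate 2. The part of blood and airway cells in the difference between the bright PNX arrays was not tested.

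Lists of markers of other cell types had smaller median differences between the bright PNX arrays. The 10 genes were chosen for this difference and the lists were not, so nothing is read from the smaller medians. Replicate 1 minus replicate 2 had a median of -0.19 over 16 epithelial genes, of which 0 were higher and 2 lower by more than 1 log2. It was -0.17 over 12 endothelial genes (1 higher, 0 lower), -0.45 over 13 macrophage and dendritic genes (0 higher, 1 lower), 0.00 over 8 lymphocyte genes (1 higher, 2 lower) and 0.58 over 6 neutrophil genes (2 higher, 0 lower). Fibroblast markers differed by a median of -0.26 (14 adventitial genes), -0.36 (10 alveolar genes) and 0.06 (11 contractile genes). The strongest genes of these lists were well above the filter. On bright arrays the surfactant gene Sftpc read 11.36 to 12.06, Sftpa1 9.05 to 10.41 and Ager, of flat alveolar cells, 9.04 to 10.24. The endothelial genes Pecam1, Kdr and Egfl7 read 5.21 to 6.60, 5.24 to 8.06 and 5.89 to 6.58 there, and Kdr was higher in bright PNX replicate 1 than in replicate 2 by 2.34. The macrophage genes Lyz2 and Chil3 read 9.77 to 10.57 and 7.79 to 9.85, and Cd74 7.35 to 8.85. Below the filter on all 12 arrays were 2 of the 16 epithelial genes, Cdh1 and Foxj1, 3 of the 12 endothelial genes, Emcn, Robo4 and Prox1, and 0 of the 13 macrophage and dendritic genes. The part of these cell types in the difference was not tested. The summed linear signal of the epithelial list was 4850 to 12031 on bright arrays and 6071 to 12991 on dim arrays.

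Whether the mesothelial genes belong to the bright gate was tested on the 10 arrays outside bright PNX, with a limma fit across all genes tested. Nkain4, above the filter on every array, was higher in bright than in dim cells in both conditions tested. Lrrn4 passed in both as well, but it entered the fit only through bright arrays, which favours such a call. Nothing is therefore read from the calls of Lrrn4, and its size is against dim signals not shown to lie above background. In PNX-dnFGFR, Nkain4 averaged 10.87 ± 0.36 in bright and 7.55 ± 0.59 in dim cells (SD, n = 2 each), a difference of 3.32 (± 0.38 SE, limma adjusted p = 0.00038). Lrrn4 differed by 1.90 (± 0.41, limma adjusted p = 0.0075). Wt1, with no test, averaged 5.39 ± 1.05 in bright and 2.41 ± 0.21 in dim cells (SD, n = 2 each), a difference of 2.98, or 0.52 with values below the filter set to it. Upk3b, with 3.04 (± 1.11, limma adjusted p = 0.063), and Upk1b, with 2.19 (± 1.44, limma adjusted p = 0.27), did not pass. Over all genes tested 21.7% were higher and 13.9% lower, and because Lrrn4 and Wt1 were admitted through bright arrays no share of the mesothelial genes is set against these. Upk3b passed with the mean of its probe sets (limma adjusted p = 0.043), with a variance trend (limma adjusted p = 0.047), with values below the filter set to it (2.55, limma adjusted p = 0.048) and in a fit of the SHAM and PNX-dnFGFR arrays alone (limma adjusted p = 0.022), where Upk1b passed too (limma adjusted p = 0.0036). With values below the filter set to it the difference of Lrrn4 was 1.08 (limma adjusted p = 0.016). With bright PNX-dnFGFR replicate 2 left out, Lrrn4 had 1.56 (limma adjusted p = 0.057), and in a fit of all 12 arrays its limma adjusted p was 0.17.

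In SHAM, Nkain4 averaged 10.25 ± 0.33 in bright and 7.87 ± 0.39 in dim cells (SD, n = 2 each), a difference of 2.39 (± 0.38 SE, limma adjusted p = 0.0033). Lrrn4 averaged 5.26 ± 0.77 in bright and 3.56 ± 0.07 in dim cells (SD, n = 2 each), a difference of 1.69 (± 0.41, limma adjusted p = 0.021). Upk3b had 1.42 (± 1.11, limma adjusted p = 0.42), and Wt1, below the filter on all 4 arrays, 0.40 with no test. Upk1b pointed the other way, with -3.05 (± 1.44, limma adjusted p = 0.18), both bright arrays lying below both dim arrays. Over all genes tested 12.3% were higher and 8.17% lower. The Lrrn4 call was lost with values below the filter set to it (0.35, limma adjusted p = 0.41), in a fit of all 12 arrays (limma adjusted p = 0.28), and without bright SHAM replicate 1 (1.15, limma adjusted p = 0.11), dim SHAM replicate 1 (limma adjusted p = 0.07) or dim SHAM replicate 2 (limma adjusted p = 0.086). The wide error of Upk1b comes from the dim PNX pair, at 10.22 and 4.52, and in a fit of the SHAM and PNX-dnFGFR arrays alone, added after the data had been seen, the same -3.05 had a limma adjusted p of 0.0016.

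Counted over all 10 genes and with no test, both bright PNX-dnFGFR arrays lay above both dim PNX-dnFGFR arrays for 10 of 10, where the share of all genes tested was 40.5%. In SHAM this held for 5 of 10 (33.2% of all genes), with Upk1b below (26.3%), and in PNX for 5 of 10 (32.5%), with an overlap in Msln, Upk3b, Upk1b, Lrrn4 and Calcb. The bright PNX arrays chose the genes for a low replicate 2, so nothing is read from the count in PNX. Wt1, Lrrn4, Cdh2, Calcb, Rarres1 and Aqp3 exceeded the filter on bright arrays alone, and Msln, on none, is not among the genes tested. Cdh2, Calcb, Rarres1 and Aqp3 may also have been chosen on these arrays. Nothing is therefore read from the counts in PNX-dnFGFR and SHAM either. The bright minus dim differences of the genes that move with the mesothelial ones were 5.53 in Cdh2, 4.83 in Calcb, 4.8 in Rarres1 and 4.32 in Aqp3 in PNX-dnFGFR. Their dim values were all below the filter, and with such values set to it these differences were 3.53 in Cdh2, 2.83 in Calcb, 2.98 in Rarres1 and 3.66 in Aqp3. In SHAM they were 1.05 in Cdh2, 0.06 in Calcb, 1.20 in Rarres1 and 0.64 in Aqp3, with all of these values below the filter except 1 of Aqp3.

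**Figure D3:**
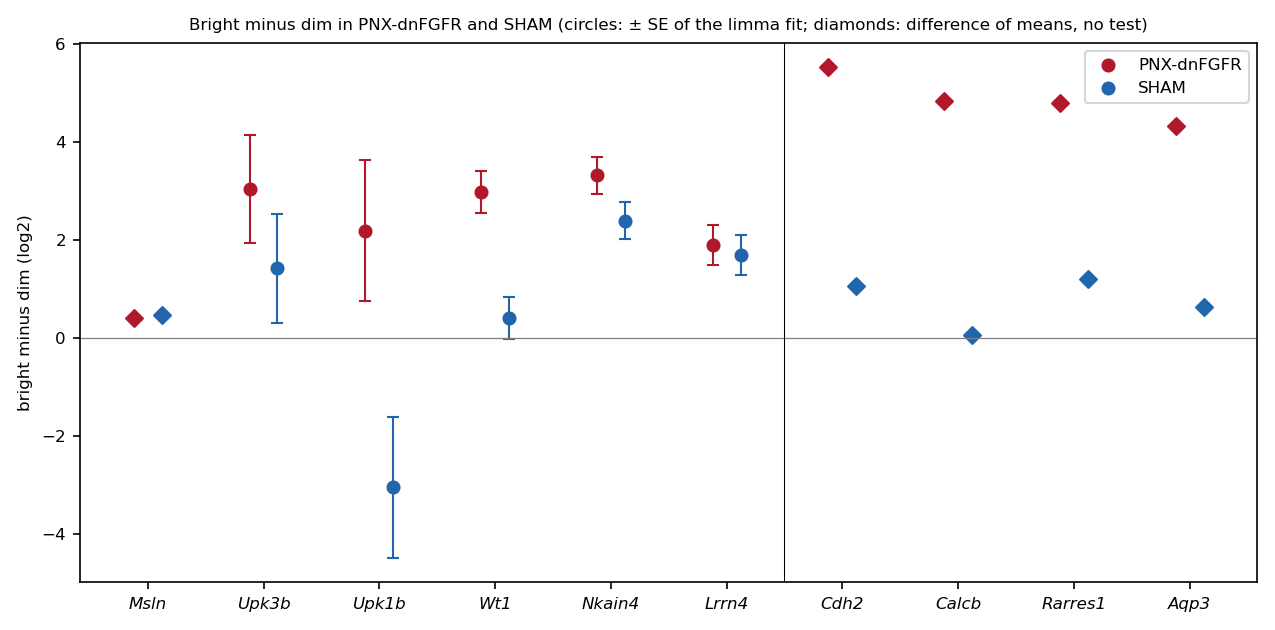
Bright minus dim difference in log2 signal (y axis) of the 10 genes (x axis) in PNX-dnFGFR and in SHAM, each from 2 arrays per gate. Circles with bars give the limma estimate ± SE of the 5 mesothelial genes in the fit. Diamonds give the difference of means of Msln and of the 4 genes given with no test. Wt1 has a circle, but its difference too is given with no test. Upk1b is the only gene below 0, in SHAM, and Cdh2, Calcb, Rarres1 and Aqp3 lie at 4.32 to 5.53 in PNX-dnFGFR.

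Among bright cells, none of Upk3b, Lrrn4, Nkain4 and Upk1b passed between PNX-dnFGFR and SHAM by limma, and 0 of them had an unadjusted p below 0.05, where 4.52% of all genes were higher and 3.69% lower. Upk3b had 1.73 (± 1.11 SE, limma adjusted p = 0.39), Lrrn4 0.92 (± 0.41, limma adjusted p = 0.21), Nkain4 0.61 (± 0.38, limma adjusted p = 0.37) and Upk1b -1.01 (± 1.44, limma adjusted p = 0.72). Wt1, with no test, averaged 5.39 ± 1.05 in PNX-dnFGFR and 3.0 ± 0.40 in SHAM (SD, n = 2 each). Its difference was 2.38, or 0.52 with values below the filter set to it, and it leaves the fit where the filter is counted on the 10 arrays.

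The other 4 genes differed by more between these 2 groups, as values with no test. PNX-dnFGFR minus SHAM in bright cells was 4.66 in Calcb, 4.28 in Cdh2, 4.18 in Aqp3 and 3.58 in Rarres1, and with values below the filter set to it 2.83 in Calcb, 3.53 in Cdh2, 3.35 in Aqp3 and 2.98 in Rarres1. Over all 10 genes, both PNX-dnFGFR arrays lay above both SHAM arrays for 8 and below for 1, Upk1b, with Msln overlapping. The shares of all genes tested were 32.0% above and 27.6% below. Wt1, Cdh2, Calcb and Rarres1 exceeded the filter only on bright PNX-dnFGFR arrays and bright PNX replicate 1, so nothing is read from the count of 8. For Cdh2, Rarres1 and Aqp3 both bright PNX-dnFGFR arrays also lay above both bright PNX arrays (21.4% of all genes), while the bright PNX arrays overlapped with the bright SHAM arrays in all 10 genes, where 21.2% of all genes lay above. A wide gap between the bright PNX arrays is what chose the genes, so nothing is read from that overlap. The comparisons with SHAM share the bright SHAM arrays, and those with PNX the bright PNX arrays that chose the genes.

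Among dim cells no mesothelial gene passed in either comparison with SHAM. By limma 0 of 5 passed for PNX-dnFGFR minus SHAM, with 1 at an unadjusted p below 0.05, where 0.0181% of all genes passed. For PNX minus SHAM 0 of 5 passed too, with 0 at an unadjusted p below 0.05, again with 0.0181% of all genes. Upk1b had the largest differences of the 5, with averages of 4.41 ± 0.91 in dim PNX-dnFGFR and 10.66 ± 0.01 in dim SHAM (SD, n = 2 each), a difference of -6.25 (± 1.44 SE, limma adjusted p = 0.28). Dim PNX minus SHAM was -3.30 (± 1.44, limma adjusted p = 0.38) in Upk1b. The wide SE of both comes from the dim PNX pair, while the first difference itself uses no dim PNX array. That first difference had a limma adjusted p of 0.002 with the SHAM and PNX-dnFGFR arrays alone. The second was -6.14 without dim PNX replicate 1, which leaves a single array in that group.

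The bright minus dim difference was not shown to differ between PNX-dnFGFR and SHAM for Upk1b, Upk3b, Nkain4 or Lrrn4 in the limma fit. Of these, Upk1b had an unadjusted limma p below 0.05, and 0.858% of all genes passed. The estimates were 5.24 (± 2.04 SE, limma adjusted p = 0.29) in Upk1b, 1.62 in Upk3b, 0.93 in Nkain4 and 0.20 in Lrrn4. Wt1, with no test, had 2.58, or 0.52 with values below the filter set to it. Upk1b passed with the SHAM and PNX-dnFGFR arrays alone (limma adjusted p = 0.017).

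A further list of 20 mesothelial genes, none of them among the 10, gave a broader view of the same arrays, and 18 could be tested. Gpm6a and Muc16, which encodes the partner of mesothelin, were below the filter on all arrays. In bright PNX-dnFGFR against bright SHAM cells 6 rose and 1 fell, where 4.52% of all genes were higher and 3.69% lower. Of these, Bnc1 and Plxna4 exceeded the filter on bright arrays alone, and only on bright PNX-dnFGFR arrays and bright PNX replicate 1. They entered the fit only through arrays where they are high, which favours such a call. Nothing is therefore read from the calls of Bnc1 and Plxna4, or from the count of 6 beside the shares of all genes. The median difference over the 18 was 0.49, against 0.016 over all genes tested. Bnc1, which encodes the zinc finger protein basonuclin, read 5.98 and 5.79 on bright PNX-dnFGFR arrays and 3.41 and 2.35 on bright SHAM arrays, a difference of 3.01 (± 0.34 SE, limma adjusted p = 0.0047), or 0.784 (limma adjusted p = 0.004) with values below the filter set to it. Slpi, a secreted protease inhibitor, read 9.54 and 9.53 in PNX-dnFGFR and 6.98 and 6.86 in SHAM (2.61 ± 0.37, limma adjusted p = 0.0069). Pdpn, which encodes the membrane mucin podoplanin, read 10.24 and 10.13 in PNX-dnFGFR and 9.15 and 9.04 in SHAM (1.09 ± 0.16, limma adjusted p = 0.0094). Dmkn (2.53, limma adjusted p = 0.033), Tmem151a (2.21, limma adjusted p = 0.029) and Plxna4, a semaphorin co-receptor (1.78, limma adjusted p = 0.011, or 1.21 with values set to the filter), also rose. Efemp1, a fibulin of the extracellular matrix, had -0.89 (limma adjusted p = 0.021). With single bright arrays of the 2 groups left out between 2 and 5 of the 18 passed, with 3 without PNX-dnFGFR replicate 1, 4 without PNX-dnFGFR replicate 2 and 2 without SHAM replicate 2, and in a fit of all 12 arrays 3 did.

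Aldh1a2 and Sulf1 of this list were higher in bright than in dim cells, by 5.03 in PNX-dnFGFR (limma adjusted p = 0.00019) and 5.73 in SHAM (limma adjusted p = 2e-04) in Aldh1a2, and by 4.34 in PNX-dnFGFR (limma adjusted p = 1.6e-05) and 3.26 in SHAM (limma adjusted p = 1e-04) in Sulf1. Their bright arrays spanned little. Aldh1a2, the retinoic acid synthesis enzyme, read 9.49 to 9.74 on all 6 bright arrays and 3.36 to 5.39 on dim arrays, and Sulf1, a heparan sulfate sulfatase, 9.38 to 9.68 on bright and 4.8 to 6.40 on dim arrays. Igfbp6, which binds insulin-like growth factors, was higher in bright cells by 2.12 in PNX-dnFGFR (limma adjusted p = 0.00026) and 1.27 in SHAM (limma adjusted p = 0.0057). Rspo1, a secreted enhancer of Wnt signals, exceeded the filter on bright arrays alone and was higher there by 2.59 in PNX-dnFGFR (limma adjusted p = 0.00037) and 1.76 in SHAM (limma adjusted p = 0.0044). With values below the filter set to it these were 0.956 in PNX-dnFGFR (limma adjusted p = 0.03) and 0.148 in SHAM (limma adjusted p = 0.77). In bright PNX, replicate 1 minus replicate 2 was 0.19 in Aldh1a2, 0.01 in Sulf1 and 0.17 in Igfbp6. By contrast Tmem151a differed by 3.52, Bnc1 by 3.34, Dmkn by 3.18 and Cldn15, a claudin, by 2.70. In all, 9 of the 20 were higher in replicate 1 by more than 1 log2, against 2.72% of all genes tested. Among the 9 was Gpm6a, below the filter on all arrays. The list was drawn up with earlier results of these arrays known, so nothing is read from the count. The median over the 20 was 0.81. Calb2 differed by -0.5, Krt8 by -0.35, Krt7 by -0.02 and Krt18 by 0.24, while Krt19 differed by 2.17. None of these genes passed for bright minus dim in PNX-dnFGFR or in SHAM. Bright against dim cells, 11 of the 18 were higher and 1 was lower in PNX-dnFGFR, with a median difference of 2.14 against 0.062 over all genes, of which 21.7% were higher and 13.9% lower. In SHAM 6 were higher and 1 lower, with a median of 0.99 against 0.042 over all genes, of which 12.3% were higher and 8.17% lower. Efemp1 was the lower gene in both, with -1.76 in PNX-dnFGFR and -0.9 in SHAM. Rspo1, Bnc1 and Plxna4 are among the 11, and Rspo1 is among the 6. These genes entered the fit through bright arrays alone, so nothing is read from the counts beside the shares of all genes. In dim cells 0 of 18 passed for PNX-dnFGFR minus SHAM and for PNX minus SHAM by limma, each with 4 at an unadjusted p below 0.05. The summed linear signal of the list was 4497 to 7348 on bright arrays and 1414 to 2068 on dim arrays, and was 7192 on bright PNX replicate 1 against 4497 on replicate 2.

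**Figure D4:**
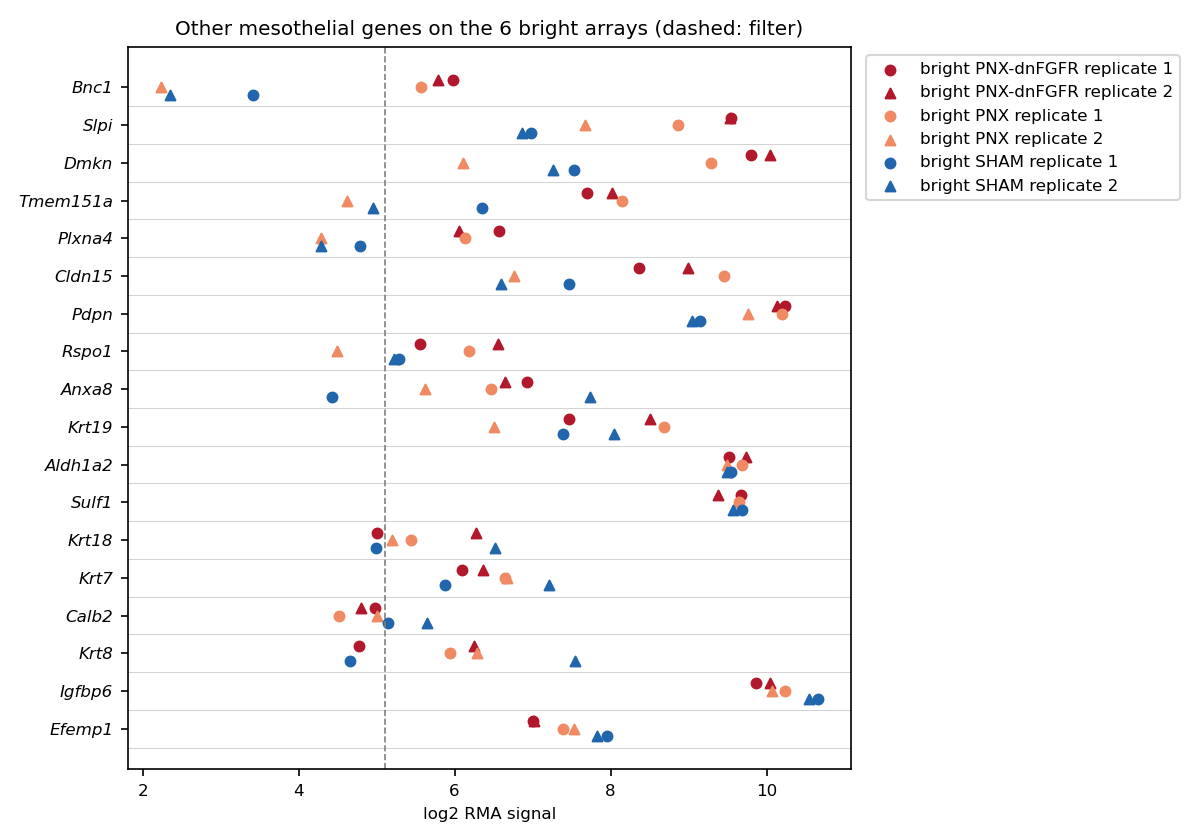
Log2 signal (x axis) of the 18 further mesothelial genes tested (rows) on the bright arrays, with circles for replicate 1, triangles for replicate 2 and the dashed line at the filter of 5.101. In Bnc1, Dmkn, Tmem151a, Plxna4 and Cldn15 bright PNX replicate 1 lies near or above the PNX-dnFGFR arrays and replicate 2 near or below the SHAM arrays, while Aldh1a2 and Sulf1 stay between 9.38 and 9.74 on all 6.

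Relatives of the 10 genes were read from the same arrays. Of 4 further uroplakin genes, Upk1a, Upk3a and Upk3bl were below the filter on all arrays and Upk2 read 4.92 to 5.35 on bright arrays. Aqp1, the water channel of endothelium and mesothelium, read 9.33 to 10.59 on bright arrays and 5.96 to 7.72 on dim arrays, with a bright minus dim difference of 3.57 in PNX-dnFGFR (± 0.43 SE, limma adjusted p = 0.00044) and of 3.76 in SHAM (± 0.43, limma adjusted p = 6e-04). Between PNX-dnFGFR and SHAM in bright cells Aqp1 had -0.56 (limma adjusted p = 0.46). Adm, adrenomedullin, a peptide of the family of Calcb, had -0.87 in the same comparison (± 0.18, limma adjusted p = 0.023). Lrrn2 rose by 1.44 (± 0.23, limma adjusted p = 0.011). Of 8 further cadherin and catenin genes tested, 0 rose and 1 fell, Cdh13, with -1.36 (limma adjusted p = 0.016), where 4.52% of all genes were higher and 3.69% lower. The catenin gene Ctnnb1 had 0.39 (limma adjusted p = 0.11) and Cdh11, the mesenchymal cadherin, 0.05 (limma adjusted p = 0.9).

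Across the 6 bright arrays the 10 genes followed each other to different degrees, given here as a description of arrays that include the chosen pair. Among Cdh2, Calcb, Rarres1 and Aqp3 Pearson's r was 0.86 to 1.0 over 6 pairs of genes. Among the 6 mesothelial genes it was 0.25 to 0.96 over 15 pairs, highest for Wt1 with Nkain4 and lowest for Upk1b with Nkain4. Between the 2 sets it was 0.14 to 0.94 over 24 pairs, with a median of 0.72, and Aqp3 had 0.14 to 0.71 with the mesothelial genes. Of the 2066 genes whose bright arrays span at least 1 log2, 64 (3.10%) had an r of at least 0.9 with the mean of the 6 mesothelial genes. The 64 were counted with the members left in, and the mesothelial genes are part of that mean. With the members and predicted genes left out, the 10 genes most like it were Frmd4b (0.988), Procr (0.986), Stk39 (0.98), Ugt1a9 (0.974), Ildr2 (0.973), Mmp9 (0.972), Cpe (0.966), Cd2ap (0.964), Mrvi1 (0.962) and Pkhd1l1 (0.958). Procr, the endothelial protein C receptor, read 7.38 and 7.37 on bright PNX-dnFGFR arrays, 7.98 and 6.01 on bright PNX arrays and 7.05 and 6.23 on bright SHAM arrays. Cpe, the prohormone processing enzyme carboxypeptidase E, read 5.25 and 5.78 on bright PNX-dnFGFR, 6.26 and 3.20 on bright PNX and 5.59 and 3.72 on bright SHAM arrays. As in the mean of the 6 genes, PNX replicate 1 was the highest of the bright arrays and PNX replicate 2 the lowest in both. Procr and Cpe were picked for their r with that mean, so nothing is read from the shared order. Over all 12 arrays the r of the 10 ranged from 0.202 in Frmd4b to 0.924 in Pkhd1l1.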

How the data were processed

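Gene expression was measured on 12 Affymetrix mouse arrays of sorted lung fibroblasts, in 6 groups of 2. The deposited values are log2 signals made with RMA, per the submitters' processing notes, which name no version or options. Their range was 1.5 to 13.05, and no further normalization was applied.

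Of 45141 probe sets, 104 controls and those naming several genes (551) or none (15588) were left out. Each of 17097 genes was represented by its probe set of highest mean signal. Genes above log2 5.101 on at least 2 arrays, 11073 in all, were tested with limma 3.58.1 in R 4.3.3 on the 10 arrays outside bright PNX (1 mean per group, 5 residual and 3.28 prior degrees of freedom). The Benjamini-Hochberg adjustment ran over all genes in each of 6 comparisons, with a threshold of 0.05. The fit was tested on simulated data. The median residual standard deviation was 0.199 log2, and precision is limited by the number of arrays.

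The members, gene lists, comparisons and alternatives were chosen with earlier results of these data known. Named genes were the 10 genes and, by highest mean signal, up to 6 further mesothelial genes and up to 3 genes of other lists. Every further mesothelial gene that passes a test was named too. So were the 10 genes outside the members most correlated with the mesothelial mean, and the 5 largest differences each way between the bright PNX arrays. Predicted genes were left out of both rankings. Emcn, Robo4, Prox1, Cdh1, Foxj1, Cdh11, Cdh13, Gpm6a, Muc16, Calb2, Krt7, Krt8, Krt18, Krt19, Upk1a, Upk3a, Upk3bl and the retinoid genes Rdh10, Crabp2, Cyp26b1 and Rarg were named after their values were seen. Values below the filter were, as an alternative, set to it. Leaving out an array left a single array in its group, so the spread came from the other groups.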

Additional observations from a re-analysis of the deposited data

Results flagged for a closer look

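Bnc1, of the further mesothelial genes, was singled out because its bright minus dim difference differed between PNX-dnFGFR and SHAM by the test of that difference, at 2.90 log2 (± 0.48 SE, limma adjusted p = 0.042). It was 3.62 in PNX-dnFGFR and 0.72 in SHAM. In the 17 other settings tried the limma adjusted p lay between 0.015 and 0.35, and it missed the threshold in 11 of the 17. All dim arrays, and bright SHAM arrays, read below the filter in Bnc1, so the size is against signals not shown to lie above background. Bnc1 entered the fit only through bright PNX-dnFGFR arrays and bright PNX replicate 1, which favours such a call. Nothing is therefore read from the call. With values below the filter set to it the difference was 0.784 log2 (limma adjusted p = 0.037).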

How the results depend on the processing

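The mesothelial genes were followed through 417 comparisons under other settings or with an array left out, and no called difference turned its sign. The 417 also cover differences that were not called, whose change of sign was counted only where the other setting called them. A variance trend, no filter or another filter, the replicate block, all 12 arrays, or the SHAM and PNX-dnFGFR arrays alone leave the estimate as it was. No sign could turn under those settings. With values below the filter set to it some differences were 0.00, such as Wt1 in SHAM. Counts of mesothelial genes here include Lrrn4 and Wt1, which entered the fit only through bright arrays. Counts of further mesothelial genes include Bnc1 and Plxna4, which did so too. Nothing is read from these counts or from any call of Wt1. Over all genes tested, the fit described called 12.3% higher and 8.17% lower for bright minus dim in SHAM. In PNX-dnFGFR the shares were 21.7% and 13.9%, and for PNX-dnFGFR minus SHAM in bright cells 4.52% and 3.69%. The number past the threshold for bright minus dim in SHAM, 2 in the fit described, was 1 with all 12 arrays, with the stricter filter of 6.762 and with values below the filter set to it, 3 with the replicate block and with the SHAM and PNX-dnFGFR arrays alone, where Upk1b was lower in bright (limma adjusted p = 0.0058 and 0.0016), and 1 to 2 with single arrays left out. For bright minus dim in PNX-dnFGFR, 3 in that fit, it was 1 with the stricter filter, which tests 3 of them, 5 with the replicate block (limma adjusted p = 0.023 in Upk3b and 0.0092 in Upk1b) and 5 with the SHAM and PNX-dnFGFR arrays alone, and 2 to 3 with arrays left out. For PNX-dnFGFR minus SHAM in bright cells, 1 in that fit, Wt1, it was 0 with all 12 arrays, the stricter filter, values set to the filter, and the filter counted on 10 arrays, and 0 to 1 with arrays left out. For the dim cells' PNX-dnFGFR minus SHAM, 0 as reported, and for the difference of differences, also 0, it was 1 with the SHAM and PNX-dnFGFR arrays alone; leaving arrays out gave 0 and 0 to 1, and 0 to 1 for dim PNX minus SHAM.

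Of the further mesothelial genes, 7 for PNX-dnFGFR minus SHAM in bright cells became 3 with all 12 arrays and 2 to 5 with arrays left out; the dim comparison gave 0 to 1 there. For the difference of differences, 1 as reported, it was 0 with all 12 arrays, the stricter filter, a variance trend, the replicate block and the SHAM and PNX-dnFGFR arrays alone, 2 with the mean of the probe sets or values set to the filter, and 0 to 2 with arrays left out. Of the retinoid genes, 4 for PNX-dnFGFR minus SHAM in bright cells became 2 to 3 with arrays left out, and 1 for the difference of differences became 0 with all 12 arrays, the replicate block and the SHAM and PNX-dnFGFR arrays alone, and 0 to 1 with arrays left out. The median of the bright PNX pair was 3.22 with the mean of the probe sets and 2.14 with values set to the filter, against 3.47. The cause was not tested.

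Over all genes, the difference of differences called 95 as reported, and 14 with all 12 arrays, 6 with the replicate block, 41 with the SHAM and PNX-dnFGFR arrays alone, 162 with a variance trend and 239 with values set to the filter; PNX-dnFGFR minus SHAM in bright cells called 910, 576 with all 12 arrays and 148 to 478 with arrays left out. With arrays left out bright minus dim called 1386 to 1729 in SHAM, against 2267, and 2592 to 3192 in PNX-dnFGFR, against 3936; the difference of differences called 10 to 109. The dim comparisons called 2 each, and 1 to 6 under other settings. The numbers were not taken as pairing bright with dim samples: the correlation of their deviations was 0.128 in PNX-dnFGFR, 0.003 in PNX and 0.005 in SHAM. Between bright groups it was 0.347 for PNX-dnFGFR with SHAM, 0.288 for PNX with SHAM and 0.065 for PNX with PNX-dnFGFR. An effect shared by replicate number was not tested. Precision is limited by 2 arrays a group, and signals below the filter are not shown to lie above background.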

Other observations

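Genes of retinoid metabolism and binding were read beside Rarres1, which retinoids induce in human cells, and Aldh1a2. Of the 16 genes of that list 12 were tested, and in bright PNX-dnFGFR against SHAM cells 3 rose and 1 fell, where 4.52% of all genes were higher and 3.69% lower, with a median difference of -0.05 against 0.016 over all genes tested. Crabp2, which carries retinoic acid in the cell, read 8.12 and 7.62 on bright PNX-dnFGFR arrays, 6.91 and 6.09 on bright PNX arrays and 5.28 and 5.10 on bright SHAM arrays, with a difference from SHAM of 2.69 (± 0.25 SE, limma adjusted p = 0.0029). Rdh10, which makes retinaldehyde, read 9.40 and 9.53 in bright PNX-dnFGFR, 8.20 and 6.16 in bright PNX and 7.20 and 6.65 in bright SHAM cells (PNX-dnFGFR minus SHAM 2.54 ± 0.33, limma adjusted p = 0.0059). Cyp26b1, which degrades retinoic acid, rose by 0.93 (± 0.23, limma adjusted p = 0.047), and the receptor gene Rarg had -0.88 (± 0.17, limma adjusted p = 0.022). Rdh10 differed by 2.04 between the bright PNX arrays, with replicate 1 higher, and Crabp2 by 0.82. Aldh1a3, a second synthesis enzyme, had -0.69. With single bright arrays of the 2 groups left out, 2 to 3 of the list passed: 2 without PNX-dnFGFR replicate 1, PNX-dnFGFR replicate 2 or SHAM replicate 2.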
